A study of Caenorhabditis elegans with 15 samples.

Results

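The ABC transporter genes of Caenorhabditis elegans whose symbols begin with pgp, mrp, haf, abt or pmp followed by a number were followed through all 5 groups of an array experiment. They were found by matching that pattern to the gene symbol of each probe set, or to the current symbol of its gene. The pattern took 39 genes, each read by 1 of the 29317 probe sets of the array. There were 14 pgp genes, 8 haf genes, 8 mrp genes, 5 abt genes and 4 pmp genes. The genes abt-3, pgp-15 and pmp-4, which the pattern also takes, had no probe set named for them and were not analysed here.

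Total RNA came from pooled wild-type worms (N2 Bristol) that were young adults and had spent 6 h at 20 °C in buffer with the test solution. Leaf preparations of Combretum mucronatum, a West African anthelmintic plant, were tested. RE was the crude hydro-ethanolic extract. Its concentration is 0.2 mg/mL in the sample titles and in the methods, and 2 mg/mL in the treatment label. The control received no plant material, being untreated by the labels and a solvent (DMSO) control by the methods. H3 0.02, H3 0.2 and H3 2 received 0.02, 0.2 and 2 mg/mL of H3, a fraction enriched in oligomeric procyanidins. Each group had 3 arrays, which the methods call biological replicates. RNA was read from whole worms, so that fewer cells of a type and less RNA per cell cannot be told apart.

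ABC transporters use ATP to move molecules across membranes. P-glycoproteins, the pgp genes, of the ABCB subfamily, are full-length transporters that push lipophilic foreign compounds out of cells, and in parasitic nematodes they are studied for their part in resistance to macrocyclic lactone anthelmintics. The haf genes encode shorter transporters of the same subfamily, which work as dimers and often in organelles. The mrp genes encode ABCC transporters, many of which export conjugated compounds. The abt genes belong to the lipid-moving ABCA subfamily, and the pmp genes encode short ABCD transporters of the kind found in the peroxisomal membrane.

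The values were log2 expression values. Levels were read against the median of their array, averaged over marker lists and used to choose genes to name. No difference in level between ABC transporter genes was tested. The first principal component, with 52.0% of the variance, parted the arrays into set A with 8 arrays and set B with 7. The control, H3 0.02 and H3 2 had replicates 1 and 2 in set A and replicate 3 in set B, whereas RE and H3 0.2 had replicate 1 in set A and replicates 2 and 3 in set B. The labels name no batch. Correlations between arrays of a group were 0.987 to 0.992 within a set and 0.958 to 0.971 across sets. At the thresholds given below, set B was higher than set A for 7 of 13 germline and oocyte markers (median log2 difference 1.17), beside 3.16% of all probe sets. It was lower for 4 of 7 hypodermis and cuticle markers (median −1.72) and 3 of 12 intestine markers (median −0.49), beside 5.65% of all probe sets. So were 3 of 4 sperm markers (median −1.24) and 1 of 5 body muscle markers (median −0.50). Of 9 sperm markers listed, only these 4 had a probe set. Neuron, pharynx and excretory cell markers did not differ at these thresholds. The sets were found from these same values, so that the counts are a description. All 12 intestine markers were measured, and on no list was a marker below the array median on every array.

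A gene is said to have passed where the p-value of limma, adjusted by Benjamini-Hochberg over all probe sets, was 0.05 or less and the groups differed at least 2-fold. The comparisons with the control share the 3 control arrays. In RE, 1 of 39 ABC transporter genes was higher (pgp-6), while 0.399% of all probe sets were. At H3 0.02 it was again 1 gene (pgp-6), beside 0.304% of all probe sets. At H3 0.2 there were 3 genes (pgp-6, haf-2 and mrp-2), beside 0.46%, and at H3 2 the same 3 genes, beside 0.665%. No ABC transporter gene passed as lower, beside 0.536% of all probe sets in RE, 0.321% at H3 0.02, 0.641% at H3 0.2 and 0.901% at H3 2. Limma with an intensity trend and the methods' test also gave 0 lower genes in each, and an unadjusted p under 0.05 was reached by 2 lower genes in RE (haf-9 and pmp-2), 1 at H3 0.02 (pmp-2), 2 at H3 0.2 (pgp-9 and pmp-2) and 1 at H3 2 (pmp-2), beside 5.16%, 3.79%, 5.41% and 6.55% of all probe sets.

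The log2 differences of the 39 genes from the control lay on both sides of 0. Their median was 0.05 in RE, 0.10 at H3 0.02, 0.03 at H3 0.2 and 0.15 at H3 2, where the median of all probe sets was 0.01, −0.0046, 0.02 and 0.02. With the array set in the fit as a block, the family median was 0.16 in RE and 0.14 at H3 0.2, beside 0.0069 and 0.02 for all probe sets, and the block left both medians as they were at H3 0.02 and H3 2. For 28 of the 39 genes no comparison with the control reached an unadjusted p of 0.05, beside 80.2% of all probe sets, and their log2 differences ran from −0.84 to 0.93. In the fit with this block, 5 genes passed as higher in RE (pgp-5, pgp-6, haf-7, mrp-2 and mrp-3), 3 at H3 0.02 (pgp-5, pgp-6 and haf-7), 4 at H3 0.2 (pgp-5, pgp-6, haf-7 and mrp-2) and 6 at H3 2 (pgp-5, pgp-6, pgp-8, haf-2, haf-7 and mrp-2), beside 1.08%, 0.767%, 1.19% and 1.48% of all probe sets, and none as lower, beside 0.986%, 0.624%, 1.03% and 1.62%. With the replicate number as a block, 5 genes passed as higher at H3 2, beside 1.07% of all probe sets. Same-numbered arrays of H3 2 and the control also lie in the same array set.

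**Figure D1:**
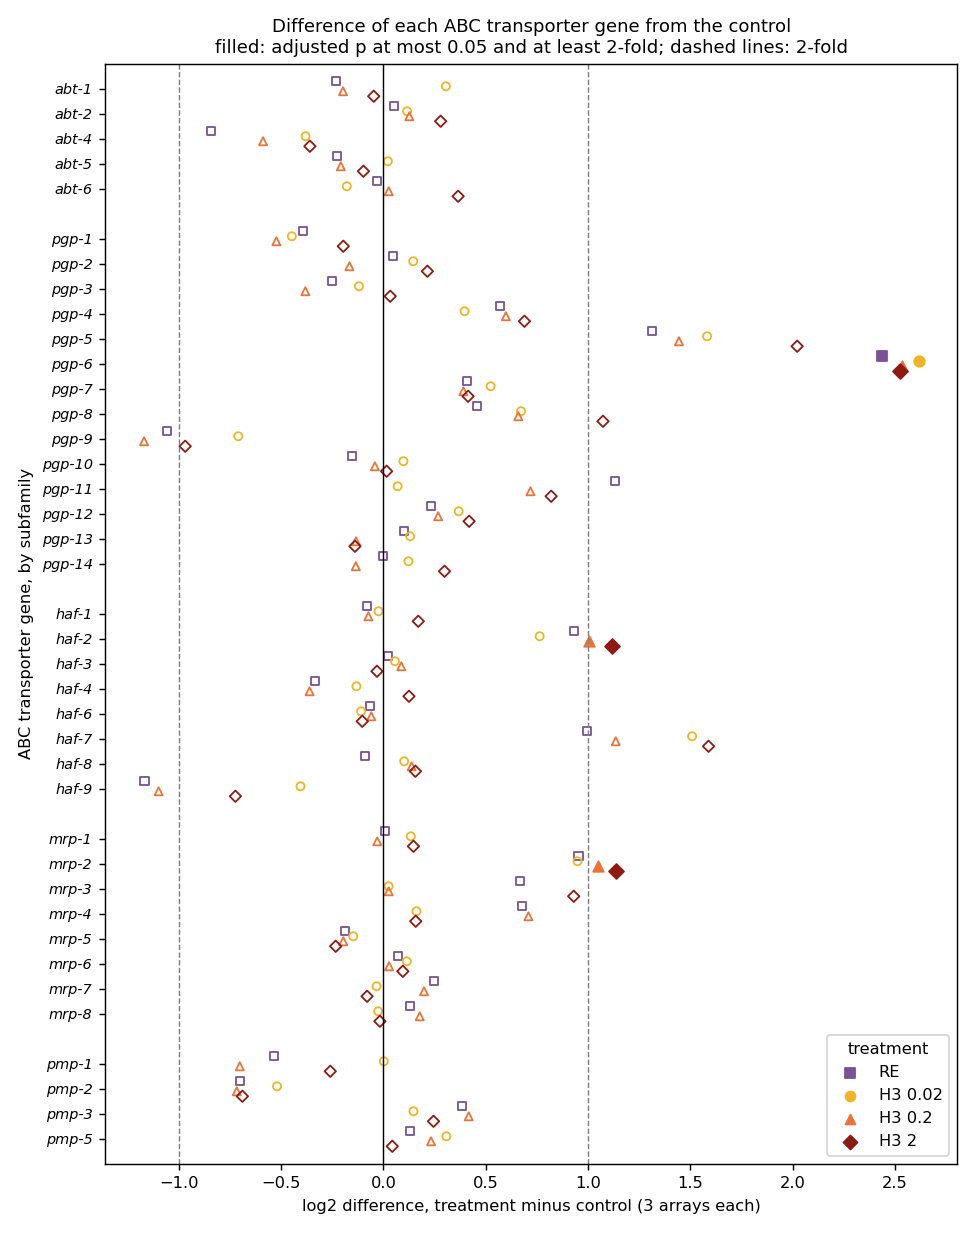
Log2 difference of each of the 39 ABC transporter genes from the control (horizontal axis), 1 row a gene and 1 marker a treatment, with filled markers for genes that passed. pgp-6 lies between 2.44 and 2.62 in all 4 treatments, haf-2 and mrp-2 are filled at H3 0.2 and H3 2, and most other genes lie within the dashed lines of 2-fold.

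pgp-6 (T21E8.1) had the largest difference of the family in every treatment. Its log2 values were 8.66, 8.13 and 8.28 on the RE arrays, 6.20, 6.14 and 5.41 on the control arrays, 8.72, 8.58 and 8.29 at H3 0.02, 8.53, 8.32 and 8.49 at H3 0.2, and 8.65, 8.49 and 8.17 at H3 2. The lowest treated array (8.13) lay well above the highest control array (6.20), and the 4 treated groups overlapped one another. The difference from the control was 2.44 in RE, 2.62 at H3 0.02, 2.53 at H3 0.2 and 2.52 at H3 2, or 5.42-, 6.13-, 5.78- and 5.75-fold. The adjusted p from limma was 8.0e-05, 7.5e-05, 5.9e-05 and 4.7e-05 in the same order. Only 76 probe sets (0.259%) passed as higher in all 4 comparisons, and pgp-6 was the one ABC transporter gene among them.

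The rise of pgp-6 was found on both sets of arrays. Within set A it was 2.49 in RE, 2.48 at H3 0.02, 2.36 at H3 0.2 and 2.40 at H3 2. Within set B, where there was 1 control array, it was 2.80, 2.88, 3.00 and 2.76 in the same order. pgp-6 passed in each of the 6 runs that left out 1 array of a comparison. It also passed when only the 6 arrays of a comparison were fitted, with adjusted p = 0.0322 in RE, 0.0414 at H3 0.02, 0.0202 at H3 0.2 and 0.0191 at H3 2.

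The differences of pgp-6 between concentrations were small beside those from the control. H3 0.2 differed from H3 0.02 by −0.08 (95% confidence interval −0.56 to 0.40), H3 2 from H3 0.2 by −0.01 (−0.49 to 0.47) and H3 2 from H3 0.02 by −0.09 (−0.57 to 0.39). RE differed from H3 0.2, the fraction at the concentration of its title, by −0.09 (−0.57 to 0.39). None of these passed the test, and the widest of the intervals reach a difference of −0.57 on the log2 scale.

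pgp-6 is the last of 4 P-glycoprotein genes that follow one another on chromosome X with no protein-coding gene between them. In the WBcel235 assembly of RefSeq the cluster spans X:10854216-10877425, with pgp-5, pgp-8, pgp-7 and pgp-6 in this order and gaps of 3, 924 and 963 bp. All positions given for genes are from this assembly. pgp-5 contributes to the resistance of worms to bacterial infection and heavy metals. The 4 genes are close relatives, and whether their probe sets share signal was not tested.

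pgp-5 (C05A9.1) was higher in every treatment within each array set. On the log2 scale it read 7.67, 5.61 and 6.42 on the RE arrays, 5.67, 5.74 and 4.36 on the control arrays, 7.65, 7.40 and 5.47 at H3 0.02, 7.49, 5.98 and 6.64 at H3 0.2, and 7.94, 7.92 and 5.98 at H3 2. In set A the 6 treated arrays lay between 7.40 and 7.94 and the controls at 5.67 and 5.74, while in set B the 6 treated arrays lay between 5.47 and 6.64 and the control at 4.36. Over both sets the RE and H3 0.02 groups overlapped the control, and the H3 0.2 and H3 2 groups did not. The log2 difference was 1.31 in RE, 1.58 at H3 0.02, 1.44 at H3 0.2 and 2.02 at H3 2, and none passed (adjusted p = 0.695, 0.697, 0.544 and 0.214). With a block for the array set it was 1.86 (adjusted p = 5.2e-04), 1.58 (0.00218), 1.99 (3.1e-04) and 2.02 (1.5e-04), and all 4 passed. With the replicate number as a block the difference passed at H3 2 (adjusted p = 0.0448). It did not pass at H3 0.02 (0.239), at H3 0.2 (0.191) or in RE.

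pgp-8 (T21E8.3) passed at H3 2 with the set block, at a log2 difference of 1.07 (adjusted p = 0.0114, against 0.258 without the block). Its log2 values at H3 2 were 5.16, 4.95 and 3.59, against 3.66, 3.43 and 3.39 in the control. The replicate of set B lay within the range of the controls and the other two above it, and without that replicate the difference was 1.56 (0.0423) and passed. In the other treatments it was 0.46 in RE, 0.67 at H3 0.02 and 0.66 at H3 0.2. The control values lay close to the medians of the arrays (3.54 to 3.65), and no signal above background was shown there.

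pgp-7 (T21E8.2), which lies between pgp-8 and pgp-6, did not pass in any comparison or with the set block. Its log2 differences from the control were 0.41 in RE, 0.52 at H3 0.02, 0.39 at H3 0.2 and 0.41 at H3 2. All 3 control arrays (3.72, 3.31 and 3.53) were also close to the array medians. The inner genes pgp-8 and pgp-7 were thus dim in the control, where their fold-changes can only be minimum estimates and cannot be ranked against those of pgp-5 and pgp-6.

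**Figure D2:**
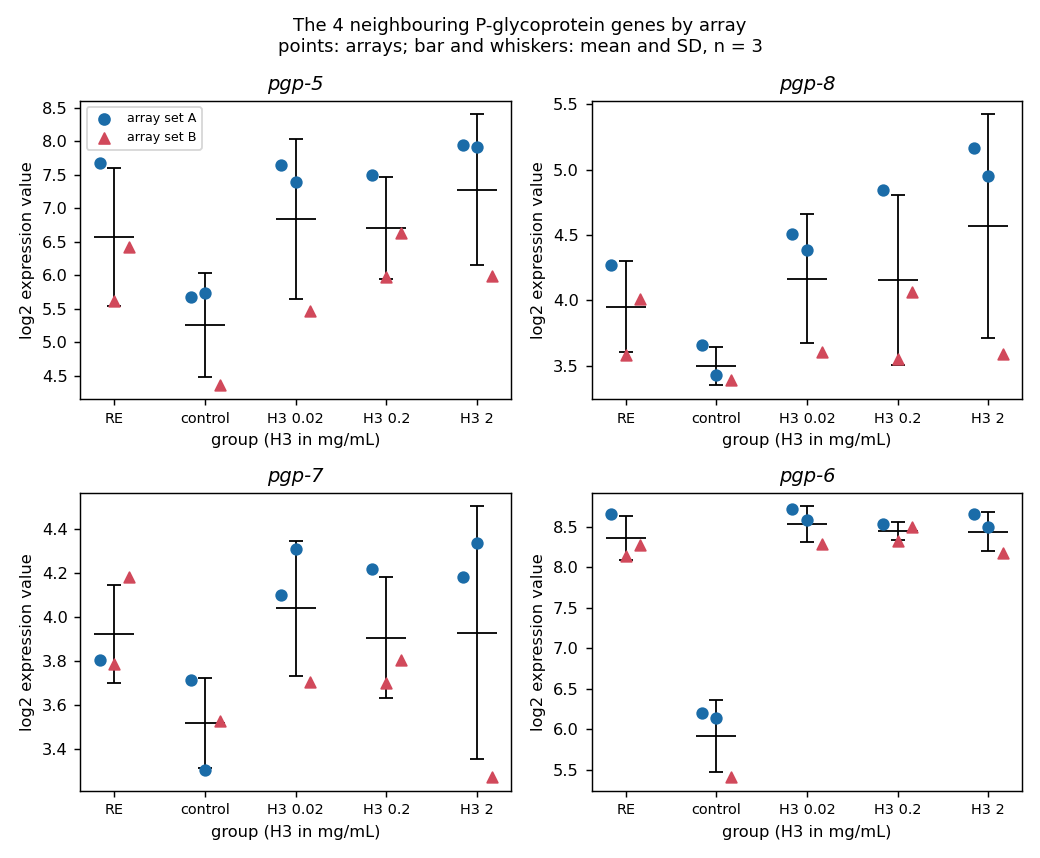
Log2 expression value (vertical axis) of pgp-5, pgp-8, pgp-7 and pgp-6, in their order on chromosome X, on each array by group, with circles for array set A, triangles for set B, and the mean and SD of 3 arrays. pgp-6 lies at 8.13 to 8.72 on treated arrays of both sets, whereas pgp-5 is lower in set B within each group.

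Of the other P-glycoproteins, pgp-4 (F42E11.1), the neighbour of pgp-3 at a distance of 721 bp, had log2 values of 4.97, 5.33 and 5.00 on the RE arrays, 4.41, 4.34 and 4.83 on the control arrays, 4.94, 4.88 and 4.94 at H3 0.02, 5.21, 5.16 and 5.00 at H3 0.2, and 5.04, 5.18 and 5.43 at H3 2. No treated array reached down to the control values. It differed from the control on the log2 scale by 0.57 in RE (adjusted p = 0.126), 0.40 at H3 0.02 (0.545), 0.60 at H3 0.2 (0.0975) and 0.69 at H3 2 (0.0368), under 2-fold in each. pgp-3, needed for resistance to colchicine and chloroquine, had log2 differences of −0.25, −0.12, −0.38 and 0.03 in the same order, none of which passed.

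pgp-11 (DH11.3), which affects the sensitivity of worms to ivermectin, had log2 values of 6.33, 6.92 and 7.07 on the RE arrays, 5.90, 5.52 and 5.51 on the control arrays, 5.71, 5.52 and 5.91 at H3 0.02, 5.65, 6.76 and 6.67 at H3 0.2, and 6.05, 6.30 and 7.04 at H3 2. The RE and H3 2 groups did not overlap the control, and the H3 0.02 group covered nearly the same range as the control. At H3 0.2 the array of set A (5.65) lay between the controls of that set, and the arrays of set B (6.76 and 6.67) lay above theirs. Averaged over all treated arrays, pgp-11 differed from the control by 0.22 in set A and by 1.22 in set B, with 1 control array in set B. The log2 difference from the control was 1.13 in RE (adjusted p = 0.136), 0.07 at H3 0.02 (1.00), 0.72 at H3 0.2 (0.442) and 0.82 at H3 2 (0.264). With the set block it was 0.95 in RE (0.0247) and 0.82 at H3 2 (0.0309), under 2-fold in both. Between H3 2 and H3 0.02 it was the one ABC transporter gene with an unadjusted p under 0.05, at a log2 difference of 0.75 and an adjusted p of 1.00. Of all 29317 probe sets, 688 higher and 600 lower ones reached such a p in this comparison.

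pgp-9 (C47A10.1) had the lowest log2 difference of the P-glycoproteins in every treatment, −1.06 in RE, −0.71 at H3 0.02, −1.17 at H3 0.2 and −0.97 at H3 2. RE arrays read 5.35, 4.62 and 4.38 on the log2 scale and control arrays 6.41, 6.33 and 4.78, where replicate 3, of set B, was the low one, so that every treated group overlapped the control. None passed (adjusted p = 0.573, 0.984, 0.429 and 0.483). With the set block the differences were −0.68 (0.0377), −0.71 (0.0383), −0.79 (0.0151) and −0.97 (0.00256), which is under 2-fold. pgp-1, whose product protects against heavy metals together with that of mrp-1, was above the median of its array on 1 array only, so that no level was shown for it. pgp-14, which shapes a lipid barrier of the pharyngeal cuticle, and pgp-12, a gene of the excretory cell, had log2 differences of −0.14 to 0.30 and 0.23 to 0.42, none of which passed. pgp-2, needed for the formation of gut granules, had log2 differences of −0.17 to 0.21, and pgp-10 of −0.15 to 0.10, none of which passed. pgp-13 was above the median of its array on 2 of 15 arrays, so that no level was shown for it either.

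Among the haf genes, haf-2 (F43E2.4, II:7353576-7356426) passed at the higher concentrations of H3. Its log2 values were 9.28, 9.19 and 9.15 on the RE arrays, 7.94, 8.12 and 8.77 on the control arrays, 8.96 to 9.16 at H3 0.02, 9.22 to 9.37 at H3 0.2 and 9.34 to 9.44 at H3 2. All treated arrays lay above the controls, of which replicate 3, the array of set B, was the highest. Relative to the control the log2 difference was 0.93 in RE (adjusted p = 0.0178), 0.76 at H3 0.02 (0.0822), 1.01 at H3 0.2 (0.0106) and 1.12 at H3 2 (0.00396). Without control replicate 3 it was 1.18 in RE (3.6e-04) and 1.01 at H3 0.02 (0.00169), and both passed. Within set B the differences were 0.41, 0.23, 0.53 and 0.67, and within set A 1.25, 1.03, 1.23 and 1.34. A test of whether the difference between all treated arrays and the controls was unlike in the sets gave −0.75 (95% confidence interval −1.14 to −0.37, adjusted p = 0.212), with 1 control array in set B.

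The means of haf-2 were 9.04 ± 0.11 at H3 0.02, 9.28 ± 0.08 at H3 0.2 and 9.39 ± 0.05 at H3 2 (SD, n = 3 each). The arrays of H3 0.02 lay below those of both higher concentrations, which overlapped each other. H3 2 differed from H3 0.02 by 0.35 (95% confidence interval −0.02 to 0.73, adjusted p = 1.00), so that the order of the concentrations did not pass the test. At H3 0.2 the fold-change was so close to the threshold that haf-2 passed in only 3 of the 6 runs without 1 array. It did not pass without H3 0.2 replicate 2 (log2 difference 0.96), control replicate 1 (0.84) or control replicate 2 (0.93), nor at H3 2 without control replicate 1 (0.95). At H3 0.2 it also fell short of 2-fold with the set block, at 0.96 (adjusted p = 0.00345), and with repeated quantile normalisation, at 0.98 (0.00683). In a fit to the 6 arrays of a comparison alone it was not among the genes that passed (adjusted p = 0.26 at H3 0.2 and 0.133 at H3 2).

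haf-7 (Y50E8A.16, V:14773258-14777697) was higher than the control on every treated array. The log2 values of the gene were 7.38, 6.20 and 6.30 on the RE arrays, 5.74, 5.52 and 5.63 on the control arrays, 7.55, 7.64 and 6.22 at H3 0.02, 7.49, 6.39 and 6.41 at H3 0.2, and 7.38, 7.83 and 6.45 at H3 2. The control arrays of both sets lay together, whereas the treated arrays of set B lay at 6.20 to 6.45 and those of set A at 7.38 to 7.83. The log2 difference was 0.99 in RE, 1.51 at H3 0.02, 1.14 at H3 0.2 and 1.59 at H3 2, and none passed (adjusted p = 0.541, 0.292, 0.377 and 0.104). With a block for the array set, the values were 1.31 (0.00536), 1.51 (0.00263), 1.45 (0.00258) and 1.59 (7.5e-04), and all passed. With the replicate number as a block haf-7 passed at H3 2 (adjusted p = 0.0231). It did not pass at H3 0.02 (0.0726), at H3 0.2 (0.124) or in RE.

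Averaged over all treated arrays, haf-7 differed from the control by 0.70 in set B and by 1.91 in set A. The test of this difference between the sets gave −1.18 (95% confidence interval −1.66 to −0.70, adjusted p = 0.102), which did not pass. Over the whole array 6 probe sets (0.0205%) passed that test, and no ABC transporter gene did.

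haf-4 and haf-9 encode transporters of the lysosome-related gut granules. haf-9 (ZK484.2) had log2 values of 7.14, 6.08 and 5.76 on the RE arrays, 8.07, 7.83 and 6.58 on the control arrays, 7.58, 7.21 and 6.47 at H3 0.02, 7.20, 6.11 and 5.87 at H3 0.2, and 6.00 to 7.31 at H3 2. Within each set every treated array lay below the controls. It differed from the control on the log2 scale by −1.17 in RE, −0.41 at H3 0.02, −1.10 at H3 0.2 and −0.72 at H3 2 (adjusted p = 0.50, 1.00, 0.489 and 0.667). With the set block it was −0.78 (0.00831), −0.41 (0.198), −0.71 (0.013) and −0.72 (0.00681), which is under 2-fold in each. haf-4 had differences of −0.34, −0.13, −0.36 and 0.12 in the same order, and none passed with or without the block. haf-1, a peptide exporter of the inner mitochondrial membrane in the mitochondrial stress response, and haf-6, which is needed for efficient RNA interference, stayed between −0.11 and 0.17, and haf-3 between −0.03 and 0.09, and none of them passed.

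mrp-2 (F57C12.4, X:563711-572701) was the ABCC gene that passed without a block. Its log2 values were 5.60, 5.23 and 5.02 on the RE arrays, 4.31, 4.30 and 4.38 on the control arrays, 5.35, 5.23 and 5.26 at H3 0.02, 5.36, 5.67 and 5.11 at H3 0.2, and 5.54, 5.60 and 5.25 at H3 2. The controls of both sets were nearly equal, and all treated arrays lay above them. The log2 difference from the control was 0.95 in RE (adjusted p = 0.0137), 0.95 at H3 0.02 (0.0192), 1.05 at H3 0.2 (0.00696) and 1.13 at H3 2 (0.00313), which is just under 2-fold in RE and at H3 0.02. Within set A it was 1.29, 0.98, 1.06 and 1.27, and within set B 0.74, 0.88, 1.01 and 0.87. Without H3 0.2 replicate 2 the difference at H3 0.2 was 0.91, again under 2-fold, and without RE replicate 3 the difference in RE was 1.08 (0.0165) and passed. In RE it also passed with the set block, at 1.00 (0.0023), and with repeated quantile normalisation, at 1.01 (0.00811). In a fit to the 6 arrays of a comparison alone, mrp-2 passed at H3 2 (adjusted p = 0.0426) and not at H3 0.2 (0.114).

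mrp-2 lies on chromosome X beside mrp-1, at a distance of 3610 bp. mrp-1, which protects worms against cadmium and arsenite, had log2 differences of 0.0082 in RE, 0.13 at H3 0.02, −0.03 at H3 0.2 and 0.15 at H3 2, and none passed.

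mrp-3 (E03G2.2) had log2 values of 7.89, 7.08 and 7.14 on the RE arrays, 7.24, 7.06 and 5.83 on the control arrays, 7.29, 7.14 and 5.77 at H3 0.02, 7.47, 6.27 and 6.45 at H3 0.2, and 7.89, 7.98 and 7.04 at H3 2. Set for set, RE, H3 0.2 and H3 2 lay above the control and H3 0.02 beside it. Relative to the control the log2 difference was 0.67 in RE (adjusted p = 0.837), 0.03 at H3 0.02 (1.00), 0.03 at H3 0.2 (0.993) and 0.93 at H3 2 (0.483). With the set block it was 1.04 in RE (9.1e-04), which passed, 0.40 at H3 0.2 (0.136) and 0.93 at H3 2 (9.9e-04), just under 2-fold. mrp-5, a heme exporter of the intestine, mrp-7 and the other ABCC genes mrp-6 and mrp-8 had log2 differences between −0.23 and 0.25, none of which passed. mrp-4 had log2 differences of 0.68 in RE, 0.16 at H3 0.02, 0.71 at H3 0.2 and 0.16 at H3 2, and with the set block none passed either.

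**Figure D3:**
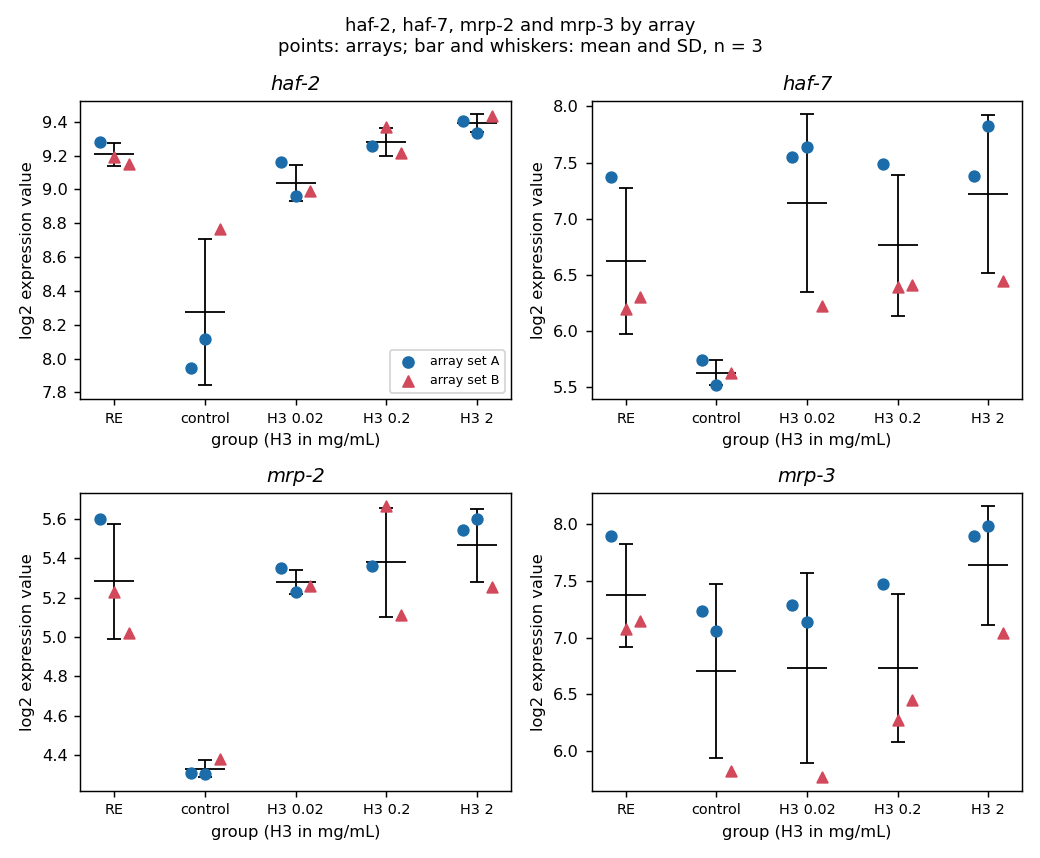
Log2 expression value (vertical axis) of haf-2, haf-7, mrp-2 and mrp-3 on each array by group, with circles for array set A, triangles for set B, and the mean and SD of 3 arrays. The mrp-2 controls lie at 4.30 to 4.38 below all treated arrays, and the treated haf-7 arrays fall into 6.20 to 6.45 in set B and 7.38 to 7.83 in set A.

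The abt genes did not pass in any treatment or with the set block. abt-4 had the lowest log2 difference of the subfamily, with −0.84 in RE, −0.38 at H3 0.02, −0.59 at H3 0.2 and −0.36 at H3 2. Within each array set every treated array of abt-4 lay below the controls. Averaged over all treated arrays, abt-4 differed from the control by −0.42 in set A and by −0.28 in set B, with 1 control array in set B. abt-2 had log2 differences of 0.05 to 0.28. abt-6, which RefSeq lists as a pseudogene, and haf-8 lay below the median of every array, so that no signal above background was shown for them.

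Of the peroxisomal group, pmp-2 (C44B7.9) was lower than the control on every treated array. Array by array it read 5.96, 5.89 and 5.32 on the RE arrays, 6.79, 6.29 and 6.20 on the control arrays, 6.01, 5.71 and 5.99 at H3 0.02, 5.65, 6.03 and 5.44 at H3 0.2, and 5.75, 5.90 and 5.56 at H3 2. No group overlapped the control. The log2 difference was −0.70 in RE (adjusted p = 0.195), −0.52 at H3 0.02 (0.605), −0.72 at H3 0.2 (0.169) and −0.69 at H3 2 (0.138), and it did not pass. Its neighbour pmp-1, 285 bp away, had log2 differences of −0.53, 0.0015, −0.70 and −0.26 in the same order, and pmp-5 had 0.13, 0.31, 0.23 and 0.04, none of which passed.

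Groups that did not overlap the control were also counted for the whole family. In RE 7 of 39 genes lay above the control without overlap and 1 below it, beside 6.32% and 6.1% of all probe sets. At H3 0.02 there were 6 above and 1 below, beside 5.3% and 5.16%. At H3 0.2 there were 6 above and 1 below, beside 7.32% and 6.18%, and at H3 2 there were 8 above and 2 below, beside 8.69% and 7.13%. pgp-4, pgp-6, haf-2, haf-7 and mrp-2 were above in all 4 comparisons, and pmp-2 below in all 4.

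pmp-3 (C54G10.3) is a common reference gene of qPCR in C. elegans. It served as such in the study, whose qPCR samples came from separate treatments of worms and not from those of the arrays. Its log2 values were 8.11, 8.77 and 8.83 on the RE arrays, 7.87, 8.08 and 8.61 on the control arrays, 8.13, 8.17 and 8.70 at H3 0.02, 8.25, 8.67 and 8.89 at H3 0.2, and 8.29, 8.14 and 8.86 at H3 2. The values followed the array set, at 8.61 to 8.89 in set B and 7.87 to 8.29 in set A, a total range of 1.02 on the log2 scale. Within each set every treated array also lay above the controls. Averaged over all treated arrays, pmp-3 differed from the control by 0.21 in set A and by 0.18 in set B, with 1 control array in set B. The difference from the control was 0.38 in RE (95% confidence interval −0.22 to 0.99), 0.15 at H3 0.02 (−0.46 to 0.75), 0.42 at H3 0.2 (−0.19 to 1.02) and 0.24 at H3 2 (−0.36 to 0.85), and none passed.

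**Figure D4:**
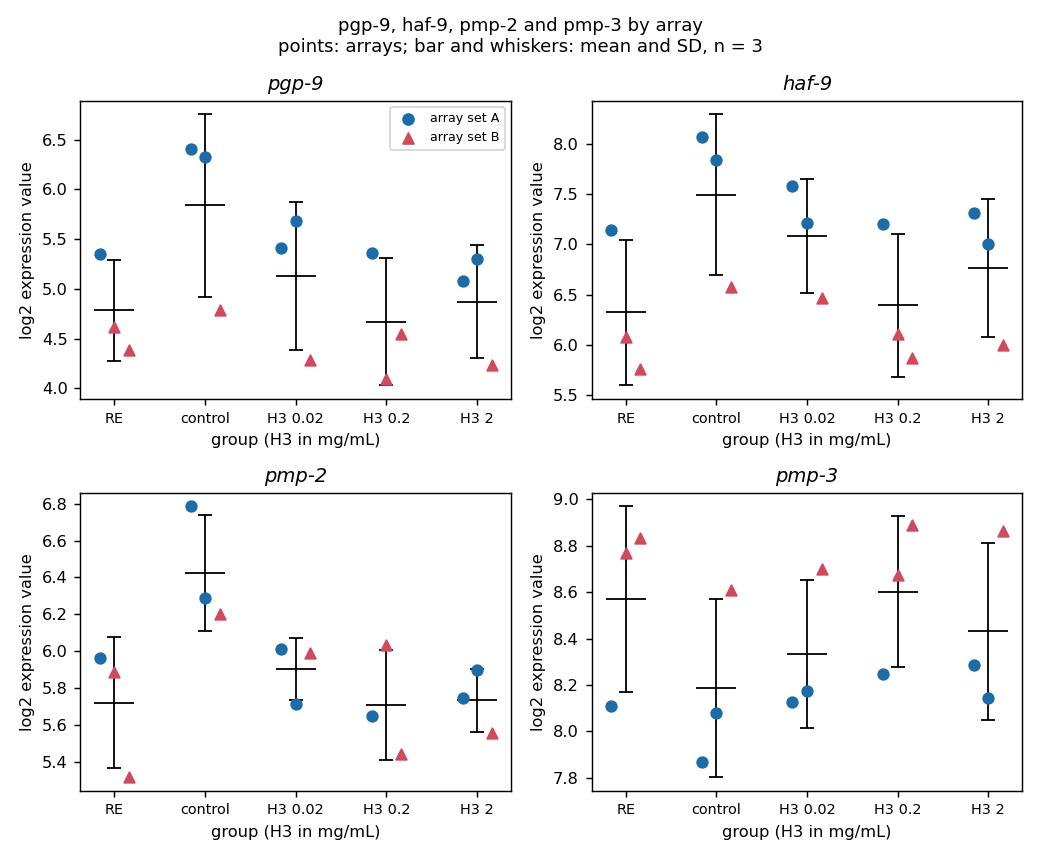
Log2 expression value (vertical axis) of pgp-9, haf-9, pmp-2 and pmp-3 on each array by group, with circles for array set A, triangles for set B, and the mean and SD of 3 arrays. The treated arrays of pmp-2 all lie below the control arrays, and pmp-3 splits into 8.61 to 8.89 in set B and 7.87 to 8.29 in set A.

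Comparisons between treatments called no ABC transporter gene. Of all probe sets, 0% passed between H3 0.2 and H3 0.02, 0% between H3 2 and H3 0.2, 0.0375% between H3 2 and H3 0.02 and 0% between RE and H3 0.2. Limma with an intensity trend and the methods' test also gave 0 ABC transporter genes in each, and pgp-11 was the only one with an unadjusted p under 0.05. It reached this between H3 2 and H3 0.02, where 688 higher and 600 lower of all 29317 probe sets did so. The median log2 difference of the 39 genes was −0.08 between H3 0.2 and H3 0.02, 0.11 between H3 2 and H3 0.2, 0.02 between H3 2 and H3 0.02 and −0.03 between RE and H3 0.2.

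More ABC transporter genes passed between the array sets than between any treatment and the control. The sets hold 8 and 7 arrays and the groups 3 each, so that these counts were not reached with equal precision. In set B 1 of 39 genes was higher than in set A and 10 were lower, beside 3.16% and 5.65% of all probe sets, in the fit that also holds the groups. The sets were found from all probe sets of these arrays, so that these differences are a description and not an independent test. mrp-4, another gene of the gut granules, was the higher one, at 8.87 to 9.31 in set B and 7.16 to 7.88 in set A (log2 difference 1.59). The lower ones were abt-1 (−1.57), abt-4 (−1.05), abt-5 (−1.61), pgp-5 (−1.64), pgp-9 (−1.14), pgp-14 (−1.15), haf-4 (−1.34), haf-9 (−1.18), mrp-3 (−1.11) and pmp-1 (−1.32). Among the genes of gut granules, mrp-4 thus differed in one direction and haf-4 and haf-9 in the other. abt-1 was also uneven within set B, with 5.40 in RE replicate 3 and 5.11 in H3 0.2 replicate 3, and 3.49 to 4.65 on the other arrays of the set.

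**Figure D5:**
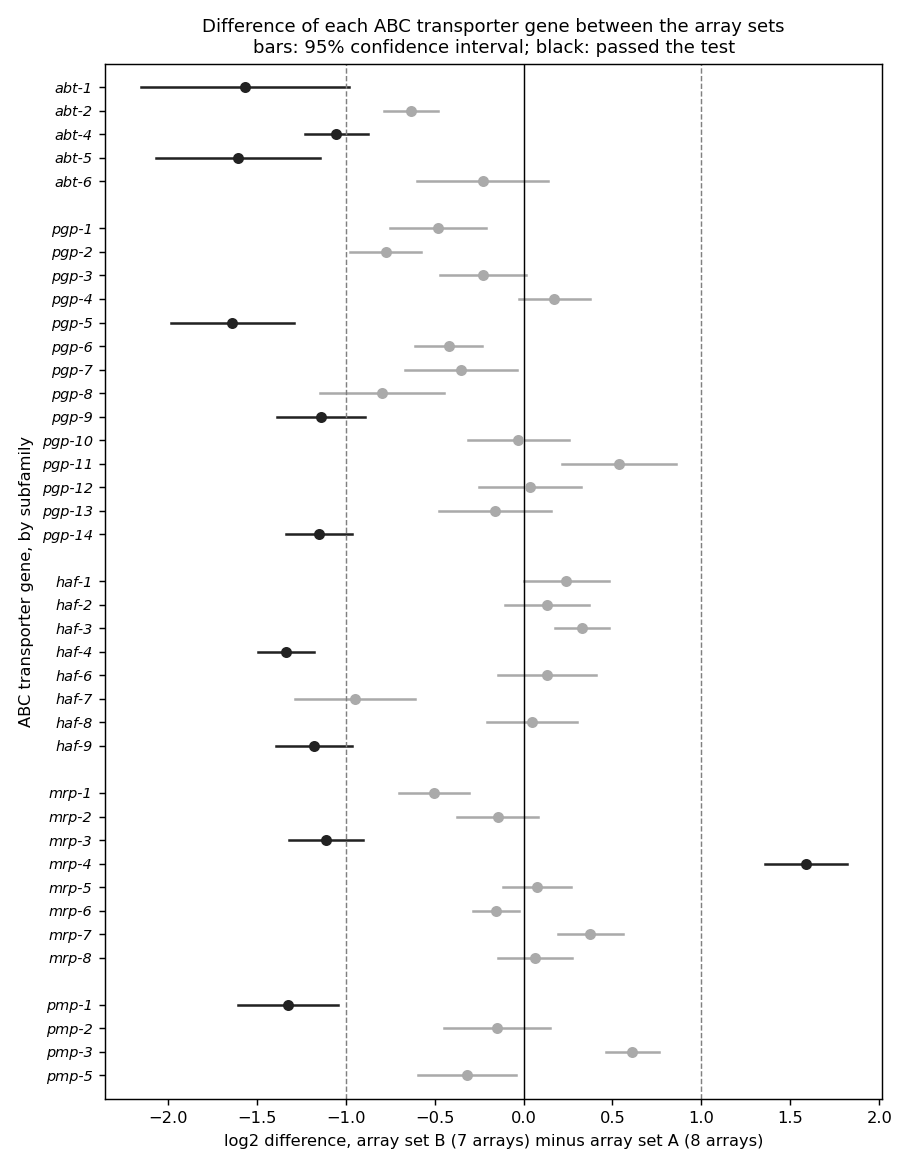
Log2 difference between array set B and array set A (horizontal axis) for each of the 39 ABC transporter genes, with 95% confidence intervals, in a fit with the groups, and in black where it passed. mrp-4 lies at 1.59 and is the only black point above 0, and 10 genes lie below −1.

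Other genes of the superfamily and regulators were counted in the same way. Of 18 ABC genes with other symbols, among them the wht, abcf and abce genes, ced-7 (engulfment of dying cells) and hmt-1 (cadmium tolerance), 17 had a probe set. None of the 17 passed in a comparison with the control, with or without the set block, and none had an unadjusted p under 0.05. Their median log2 difference was −0.04 in RE, 0.0043 at H3 0.02, −0.04 at H3 0.2 and −0.0090 at H3 2. Of 16 regulators of xenobiotic and stress genes, such as nhr-8, skn-1, mdt-15, pmk-1 and zip-2, none passed, with or without the set block. An unadjusted p under 0.05 was reached by 0 in RE, 1 at H3 0.02, 2 at H3 0.2 and 3 at H3 2, beside 9.38%, 7.18%, 10.6% and 12.9% of all probe sets. With the set block, zip-2 had log2 differences of 0.59 in RE (adjusted p = 0.0309), 0.40 at H3 0.02 (0.186), 0.62 at H3 0.2 (0.0226) and 0.73 at H3 2 (0.00541). All were under 2-fold. The 12 intestine markers had a median log2 difference of −0.24 in RE, −0.09 at H3 0.02, −0.15 at H3 0.2 and −0.24 at H3 2. Of them, 1 passed as lower in RE and 1 at H3 0.2, beside 0.536% and 0.641% of all probe sets. With the set block, 2 of these markers passed as lower in RE, 1 at H3 0.02, 2 at H3 0.2 and 2 at H3 2. The shares of all probe sets were then 0.986%, 0.624%, 1.03% and 1.62%. None of the intestine markers passed as higher. Their mean level on an array was 8.60 to 9.05 in RE, 8.81 to 9.41 in the control, 8.64 to 9.17 at H3 0.02, 8.70 to 9.07 at H3 0.2 and 8.68 to 9.08 at H3 2. Their part in the differences of the ABC transporter genes was not tested.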

How the data were processed

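Affymetrix Gene 1.0 ST arrays for C. elegans were hybridised with RNA of whole worms. The authors summarised the arrays with RMA and quantile normalisation and deposited log2 expression values, used here unchanged. The submitters' notes also name Expression Console and Partek, with versions not given in the sources used here. Background is not marked, so that a probe set at or below the median of its array was read as not shown to be above it.

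Probe sets were named through the platform annotation and RefSeq WBcel235 (Python 3.11.15, pandas 2.3.3). In R 4.3.3, limma 3.58.1 (lmFit, eBayes) fitted 1 mean per group over 15 arrays and 29317 probe sets. A gene passed if its Benjamini-Hochberg adjusted p was 0.05 or less and its log2 fold-change 1 or more in size. There were 8 comparisons, of each treatment against the control, of the H3 concentrations among themselves, and of RE against H3 0.2. The number of arrays limits the precision. Fits were tested on simulated data that held no array sets, so that this test does not cover the sets found here.

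The labels give replicate numbers and name no pairing. All residual correlations of same-numbered arrays were over 0.1 (lowest 0.42) in some comparisons. These were H3 0.02 and the control, H3 2 and the control, H3 2 and H3 0.02, and RE and H3 0.2. There same-numbered arrays also lie in the same array set, so that these correlations cannot show whether the numbers mark paired arrays.

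Members and lists were chosen with earlier results of these data known. Genes are named if they passed in a comparison, had an adjusted p of at most 0.05, were among the 3 largest by t or at the ends of the level range in their subfamily, differed most between array sets, or were pmp-3 or one of pgp-5 to pgp-8. Further genes were named after their values were seen. The test of treatment by array set was added after the data had been seen. Sequences were not analysed here.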

Additional observations from a re-analysis of the deposited data

How the results depend on the processing

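Of the genes followed through the alternatives, only mrp-3 changed direction, where its difference from the control was near 0 and had not passed. At H3 0.02 (0.03) it was −0.053 in set B alone and −0.42 to 0.50 without 1 array, below 0 without H3 0.02 replicate 1 (−0.25), H3 0.02 replicate 2 (−0.18) or control replicate 3 (−0.42). At H3 0.2 (0.03) it was −0.41 to 0.29 without 1 array, below 0 without H3 0.2 replicate 1 (−0.35) or control replicate 3 (−0.41). The count for H3 0.02 (1 gene) was 2 with no fold threshold, 3 with the array set as a block, 4 in set A alone and 0 in set B alone, and 1 to 2 when 1 array was left out. The count for H3 0.2 (3 genes) was 1 with only the 6 arrays compared, and as low as 1 without 1 array (H3 0.2 replicate 2). The count for H3 2 (3 genes) was 5 with the replicate block and 6 with the set block. In set A alone it was 7, where 1106 of all probe sets passed, against 195 higher and 264 lower in the main fit. The count for RE (1 gene) was 3 with no fold threshold, 2 with the replicate block, 5 with the set block and 2 with repeated quantile normalisation. It was 1 to 2 without 1 array (2 without RE replicate 3 or control replicate 3). The sets alone hold fewer arrays. Set B has 1 control array, and set A has 1 array each of RE and H3 0.2, so that no counts are given there. In the comparisons between treatments the count stayed 0 throughout. The replicate block changed no other count by over 1.5 times. In RE and H3 0.2, replicate 2 lies in another array set than in the control, and there the replicate block added haf-9 as lower (adjusted p = 0.00966 and 0.0124). The filter on dim probe sets kept 15603 probe sets and 35 of the 39 genes. No step shifted the median of all probe sets by over 0.1.

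Precision is limited by 3 arrays a group and by the array sets, which lie unevenly over the groups. Signal shared between probe sets of close relatives was not tested, and dim genes give only bounds.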
